A study of Mus musculus with 2 samples.

Results

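Arterial endothelial cells (ECs) line the vessels that carry blood into a tissue before it enters the capillaries. In the lung these vessels are the pulmonary arteries and arterioles, together with the bronchial arteries. Their identity is set by NOTCH signaling between neighbouring cells and by transcription factors such as SOX17 and MECOM. They make much of the elastic matrix of the inner vessel wall and release signals that set the tone of the smooth muscle around them. Arterial ECs are few in a lung cell suspension, because capillaries hold most of the lung endothelium.

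Single-cell RNA sequencing was available for the lungs of wild-type C57BL/6 mice taken 6 h after injection through the tail vein. The control mice received PBS and the others 400000 B16-F10 cells in 100 µl of PBS. B16-F10 is a mouse skin melanoma cell line, and its cells were labeled with a green tracker dye. PECAM1-positive, PTPRC-negative cells were sorted from both groups, that is, cells with an endothelial surface protein and without a leukocyte surface protein. Dyed melanoma cells were collected from the injected lungs only and went into the same library. The labels give 2 mice per treatment, and the methods of the study give 3 for the experiment with this cell number, with the cells of all mice of a treatment pooled. Each group was 1 library, so no group has a replicate and no difference between the libraries was tested. Mouse, injection, sort and library cannot be told apart here. Confidence intervals (95%) cover counting error only and ignore the variation between cells and between mice.

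Arterial cells were chosen by measured values. A barcode was kept with 1000 to 5000 genes, under 20% mitochondrial molecules and at least 0.5% of its molecules from the nuclear RNA Malat1. It was called endothelial with at least 2 molecules of Pecam1 and Cdh5 together. It was called arterial when Gja5, Stk32a, Sfrp1 and Cytl1 together gave at least 4 unique molecular identifiers (UMIs, each marking 1 captured RNA molecule) and more than the vein markers Slc6a2, Amigo2, Mmp16 and Tmem45a, while the aerocyte markers Ednrb, Fibin and Apln gave at most 3. In all, 352 of 15029 ECs met the rule, out of 15210 filtered barcodes of the series. No barcode sequence was shared between the arterial cells of the 2 libraries, and 14 were shared between all their ECs.

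The libraries held 85794655 UMIs (control) and 104978816 UMIs (B16-F10). The median depth of an arterial cell was 9201 UMIs in the control and 10283 in the injected lungs, against 7770 and 9206 for all ECs. The UMIs of all arterial cells of a library were added up, which gave 1820361 and 1619172 UMIs, and levels are given as counts per 1000000 UMIs of those sums (CPM). Barcodes poor in Malat1, which the rule leaves out, were 409 in the control and 1096 in the B16-F10 library, and 1 of them in each carried enough arterial marker UMIs to have been called arterial.

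The arterial label was checked against genes that the rule did not use. Mgp, which encodes matrix Gla protein, an inhibitor of vessel calcification, stood at 3230 CPM in control arterial cells and at 53.7 CPM in all other control ECs. Eln, which encodes elastin, was at 965 against 98.5 CPM. Mecom, a transcription factor of arterial and stem cells, was at 1422 CPM in the control arterial sum. The given markers outside the rule were also there, Sulf1 (a heparan sulfatase) at 501 CPM against 18.9 CPM in other ECs and Esr2 (estrogen receptor beta) at 167 CPM. Among the 15 genes with the highest ratio to other ECs in control, Htra1 (a secreted serine protease) was 102-fold, Cmklr1 (the chemerin receptor) 109-fold and Dkk2 (a secreted WNT modulator) 97.4-fold higher. The 4 markers of the rule chose these cells, and every gene of the same cells counts as used by it, so these contrasts are descriptions.

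Arterial cells were not sharply set off from capillary cells. The artery marker list of the study, which was chosen on these samples and is therefore no independent evidence, had a median of 224 UMIs per 10000 in control arterial cells and of 30.3 in ECs with general capillary (gCap) identity. For the study's gCap list the medians were 265 and 335 in the same cells. Arterial cells just inside the limit, with a marker sum of 4, had an artery list median of 86.0 in control and 91.2 after B16-F10, and ECs just outside it, with a sum of 3, had 95.5 and 72.7. Between the 10th and the 90th percentile the artery list ran from 67.4 to 413 UMIs per 10000 in control arterial cells. Hence the rule took in a range of cells, and the results below are also given for its ends.

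The range had a recognisable composition. Members with at least 2 Cytl1 UMIs had, in control, 5843 CPM of Mgp, 1544 of Eln, 1933 of Mecom and 699 of Sulf1. Members with fewer Cytl1 UMIs had 303, 316, 849 and 280 CPM of these genes. The first set was also higher in the vein marker list of the study. Its control median was 47.47 UMIs per 10000, against 13.97 in the second set. Control ECs called vein by their own markers had 131.4 and gCap cells 11.07. Hence the first set was not set apart by artery genes alone. The second set was instead higher in Efnb2, which encodes the arterial ligand ephrin-B2 (1460 against 948 CPM), in the chemokine gene Cxcl12 (1903 against 918 CPM) and in 3 genes of lung capillaries: Gpihbp1, the anchor of lipoprotein lipase (876 against 252 CPM), Kit, a receptor tyrosine kinase (456 against 80.1 CPM), and Lpl, the lipase itself (1260 against 202 CPM). On the study's gCap list the control medians were 221 UMIs per 10000 in the first set and 342 in the second. Control gCap cells had 335, so the second set stood at their level on this list. Cytl1 belongs to the rule and differed between the libraries, at 893 and 397 CPM, so cells were also split at 5 UMIs of Mgp, which is not in the rule. Both splits were chosen after the data had been seen, and a split on a gene that differs between libraries can put unlike cells side by side.

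Arterial cells made up a similar share of ECs in both lungs, at 196 of 7921 (2.47%, 2.14 to 2.84) in control and 156 of 7108 (2.19%, 1.87 to 2.56) after B16-F10. The difference was -0.280 percentage points, with an interval of -0.771 to 0.215. After every cell had been thinned to 2000 UMIs, 73 and 35 cells met the rule, and the difference was -0.435 percentage points (-0.717 to -0.157). At this depth a similar share and a lower one could therefore not be told apart. Their makeup differed more. Members with at least 2 Cytl1 UMIs were 103 of 196 (52.6%, 45.3 to 59.7) in control and 52 of 156 (33.3%, 26.0 to 41.3) after B16-F10. Members with at least 5 Mgp UMIs were 96 (49.0%, 41.8 to 56.2) and 50 (32.1%, 24.8 to 40.0). The arterial sum of the B16-F10 library thus held fewer cells of the Cytl1- and Mgp-rich kind, and whether that reflects the cells captured or the levels of these genes cannot be told apart.

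Genes of the reactive capillary (rCap) program were higher in the sum of all arterial cells after B16-F10 injection, and many artery genes were lower. Of 7993 genes with at least 50 UMIs over both arterial sums, 167 (2.09%) were at least 2-fold higher in the B16-F10 library with a counting interval that excluded no change, and 155 (1.94%) were at least 2-fold lower. Without the limit on size, 1292 genes (16.2%) were higher and 1156 (14.5%) lower beyond counting error. The median log2 ratio of all counted genes was 0.02. The rCap list of the study was used without Kit and the markers that also stood in its interferon list, which left 44. Of these, 40 were counted, 38 of them were higher beyond counting error and 1 was lower, with a median log2 ratio of 1.06. Of the study's 48 artery markers outside the rule, 36 were lower and 6 higher, with a median of -0.54. Both lists were chosen by the study on these samples, so their direction is not independent evidence.

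**Figure D1:**
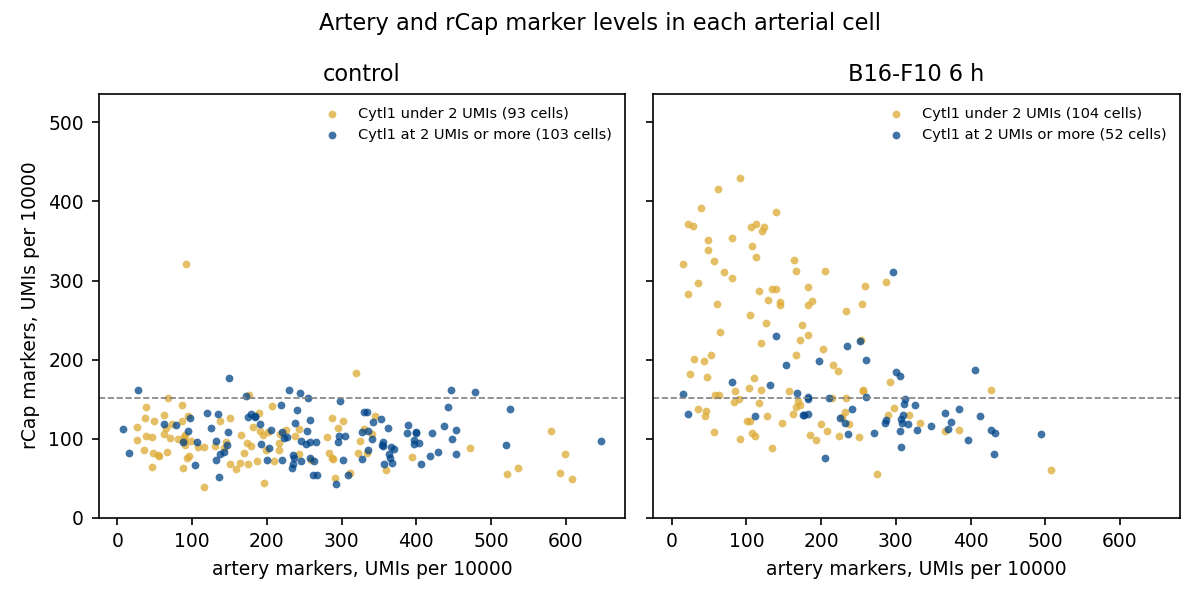
Each point is 1 arterial cell, with the summed artery markers of the study on the x axis and its summed rCap markers on the y axis, both in UMIs per 10000, for control (left) and B16-F10 lungs at 6 h (right). Colour marks cells with at least 2 Cytl1 UMIs and the dashed line is the control 95th percentile of rCap markers, 152, above which lie 10 of 196 control and 82 of 156 B16-F10 cells, most of the latter toward the low end of artery markers.

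In the B16-F10 library the share of cells high in rCap markers differed along this range. Taking as rCap-high the cells above the 95th percentile of control arterial cells, 152 UMIs per 10000, 82 of 156 arterial cells (52.6%) were rCap-high after B16-F10, compared with 10 of 196 (5.10%) in control. In the B16-F10 library, 26 of the 34 cells under 100 UMIs per 10000 of artery markers were rCap-high (76.5%, 58.8 to 89.3). The share was 35 of 54 (64.8%, 50.6 to 77.3) between 100 and 200 and 17 of 38 (44.7%, 28.6 to 61.7) between 200 and 300. It was 4 of 30 (13.3%, 3.76 to 30.7) in the cells at 300 or more. The lowest and highest of these intervals did not overlap. In control the same 4 bins held 2 of 41, 3 of 44, 2 of 50 and 3 of 61 rCap-high cells, between 4% and 6.82%. Each of these control shares lay within the interval of the others. Both lists share the same total in each cell. The artery list was itself lower after B16-F10, with medians of 224 and 180 UMIs per 10000. A bin therefore need not hold the same kind of cells in both libraries. Which cells responded cannot be told from these bins.

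Promoters are shown for Il4ra, Socs3 and Bcl3, which were among the higher genes. They were picked for holding letters recognised by STAT or NF-κB factors, as 3 of 6 searched promoters did. These 6 belonged to named higher genes of the rCap, NF-κB and JAK-STAT lists. The RefSeq sequences (GRCm38.p6, 250 bases before to 50 after the start) run 5′ to 3′ on the strand of the gene, with the matching letters in capitals. Il4ra encodes the interleukin 4 receptor alpha chain, and its promoter (chr7:125552021-125552320, plus strand) and that of Bcl3 (chr7:19822706-19823005, minus strand), an atypical IκB protein that binds NF-κB subunits, hold GGNNTTTCC on the opposite strand, a core of NF-κB sites. Socs3 encodes a feedback inhibitor of cytokine receptors, and its promoter (chr11:117969317-117969616, minus strand) holds TTCNNNGAA, the palindrome that STAT dimers bind.
Il4ra: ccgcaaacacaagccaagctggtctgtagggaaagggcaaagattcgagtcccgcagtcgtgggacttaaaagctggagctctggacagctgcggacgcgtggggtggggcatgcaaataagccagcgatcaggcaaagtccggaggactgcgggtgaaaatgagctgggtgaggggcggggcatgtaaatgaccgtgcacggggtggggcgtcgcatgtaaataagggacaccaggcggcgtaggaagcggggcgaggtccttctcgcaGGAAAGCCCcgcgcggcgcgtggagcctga
Socs3: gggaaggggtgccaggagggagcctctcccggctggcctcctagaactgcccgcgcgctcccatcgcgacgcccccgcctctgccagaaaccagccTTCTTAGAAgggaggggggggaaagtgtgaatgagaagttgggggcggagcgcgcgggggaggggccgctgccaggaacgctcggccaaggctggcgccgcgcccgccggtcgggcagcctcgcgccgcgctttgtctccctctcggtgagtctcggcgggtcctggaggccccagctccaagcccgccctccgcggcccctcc
Bcl3: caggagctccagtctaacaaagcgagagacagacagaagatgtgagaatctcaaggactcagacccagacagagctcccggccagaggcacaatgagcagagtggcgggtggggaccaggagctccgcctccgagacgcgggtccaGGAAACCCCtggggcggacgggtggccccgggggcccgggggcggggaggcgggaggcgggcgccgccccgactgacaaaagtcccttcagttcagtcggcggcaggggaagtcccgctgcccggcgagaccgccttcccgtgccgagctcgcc
The 4 motifs searched on both strands were TTCNNNGAA, GGNNTTTCC, TGANTCA (AP-1) and GAANNTTC (heat shock factors), and 1 promoter could hold several. A promoter was matched for 128 of the 167 higher genes, 111 of the 155 lower genes and 6365 of all 7993. TTCNNNGAA stood in 18 of 128 promoters of higher genes (14.1%, 8.55 to 21.3), in 0 of 111 of lower genes (an exact interval of up to 3.27%) and in 6.77% of all. GGNNTTTCC stood in 8.59% of higher, 8.11% of lower and 6.06% of all, TGANTCA in 4.69%, 5.41% and 4.54%, and GAANNTTC in 3.13%, 3.60% and 5.56%. A match of letters is no measured binding site.

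The named rCap genes differed most in the Cytl1-poor members. Pim3 (chr15:88862186-88865726), a survival kinase of the PIM family, was at 98.3 CPM in control and 266 CPM in B16-F10 arterial cells, a log2 ratio of 1.44 (1.18 to 1.70). In members with at least 2 Cytl1 UMIs it was at 154 and 194 CPM, a log2 ratio of 0.33 (-0.04 to 0.71), and in the others at 36.1 and 301 CPM, a ratio of 3.06 (2.53 to 3.64). Pim3 was thus within counting error in the Cytl1-rich cells, and with the Mgp split it was 0.68 (0.32 to 1.05) in the rich and 2.49 (2.04 to 2.97) in the poor cells. Bcl3 had 36 UMIs in the control and 148 in the B16-F10 sum, 19.8 and 91.4 CPM, with log2 ratios of 1.13 (0.32 to 1.96) in Cytl1-rich and 3.07 (2.18 to 4.12) in Cytl1-poor members. Inhbb, which encodes the beta B subunit of activins, had 15 and 124 UMIs, and 73.3% of the control UMIs came from 1 cell. In Cytl1-rich members it stood at 11.4 and 3.80 CPM and in the others at 4.66 and 112 CPM.

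Several other named genes were split in the same way, though Stat3, described with its family, was not. Socs3 was at 114 and 385 CPM over all members, with log2 ratios of 0.12 (-0.28 to 0.50) in Cytl1-rich and 2.93 (2.53 to 3.36) in Cytl1-poor members. Its level in control was already higher in the Cytl1-rich cells, at 158 against 64.1 CPM. Cebpd, a transcription factor of the acute-phase response, was higher in both, with 1.19 (0.93 to 1.45) and 2.39 (2.17 to 2.62), and so was Il4ra, with 1.20 (0.80 to 1.61) and 1.83 (1.56 to 2.11). Pfkfb3, an activator of glycolysis, had 1.19 (0.49 to 1.91) and 2.71 (2.11 to 3.35). Adamts9, a secreted protease of the vessel wall, stood at 33.3 and 43.7 CPM in Cytl1-rich members, within counting error, and at 88.5 and 541 CPM in the others. Of 39 rCap markers with a UMI in both sets of both libraries, 39 had the larger log2 ratio in Cytl1-poor members, and for 28 of them the intervals of the 2 sets did not overlap. Under 50 UMIs were seen for 6 of the 39 in the Cytl1-rich sums. Over genes with at least 50 UMIs the median of the list was 0.30 in Cytl1-rich (33 genes) and 1.46 in Cytl1-poor members (40 genes), and 0.44 and 1.48 in Mgp-rich and Mgp-poor members. Rich cells were nevertheless not outside the response, as 16 of 52 (30.8%) were rCap-high after B16-F10 against 7 of 103 (6.80%) in control.

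**Figure D2:**
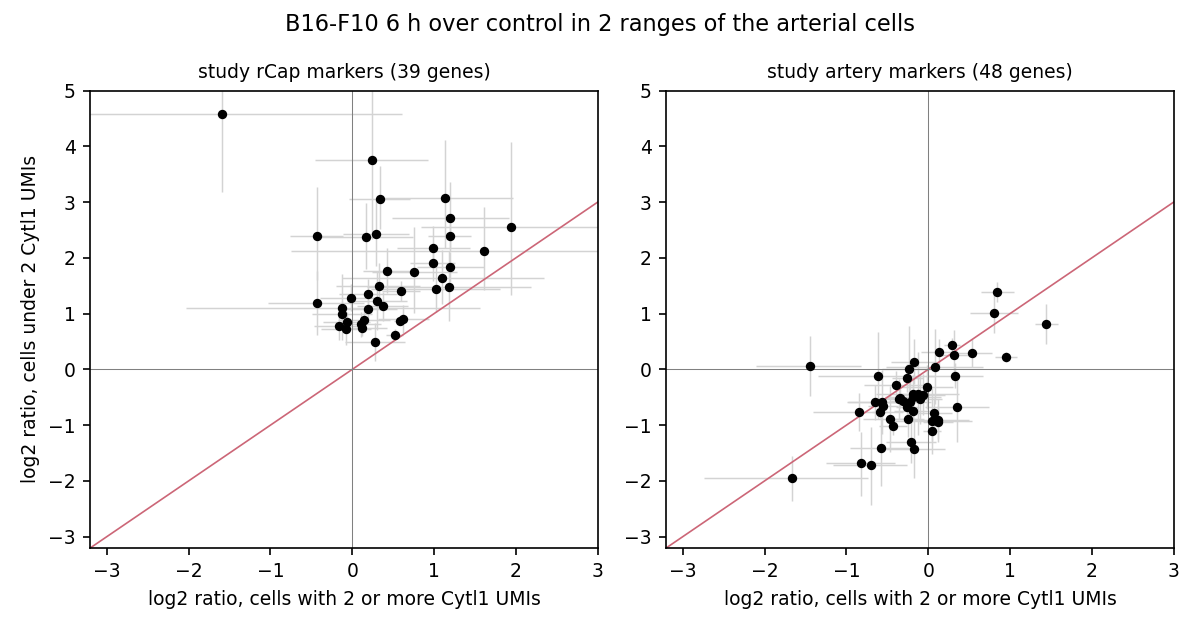
Log2 ratio of B16-F10 at 6 h over control for each marker of the study in arterial cells with at least 2 Cytl1 UMIs (x axis) and with fewer (y axis), for 39 rCap markers and 48 artery markers. The line marks equal ratios. The 39 rCap markers all lie above it, while 12 of 48 artery markers do.

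Of the wider families, JAK-STAT genes had 16 of 29 counted members higher and 2 lower beyond counting error, against 16.2% and 14.5% of all genes. The receptor subunit gene Il6st was at 390 and 561 CPM (log2 0.53, 0.38 to 0.67), Jak2 at 58.2 and 97.0 CPM (0.74, 0.37 to 1.11) and Stat3 at 190 and 243 CPM (0.35, 0.14 to 0.57). The log2 ratio of Stat3 was about equal in Cytl1-rich (0.37) and Cytl1-poor members (0.35). Of 19 counted NF-κB genes, 7 were higher and 0 lower. Nfkbia, the inhibitor that NF-κB itself induces, went with 304 and 550 CPM (0.86, 0.70 to 1.01) and the subunit gene Relb with 19.2 and 44.5 CPM (1.21, 0.61 to 1.84), whereas Nfkb1 was at 179 and 192 CPM, within counting error. Interferon markers of the study had a median log2 ratio of 0.11, with 12 of 48 counted higher and 7 lower.

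The arterial program was lower in the B16-F10 arterial sum, its NOTCH genes included. Of 18 NOTCH genes 16 were counted, 0 were higher and 9 lower beyond counting error, against 14.5% of all genes lower, and the median log2 ratio was -0.31. The NOTCH list was lower in the other vessel classes too, with medians of -0.32 in vein, -0.20 in aerocyte and -0.15 in gCap cells. Jag1 (chr2:137081456-137116644), a NOTCH ligand, gave 136 UMIs in control arterial cells and 44 after B16-F10, 74.7 and 27.2 CPM, a log2 ratio of -1.46 (-1.98 to -0.96). Hey2 (chr10:30832359-30842801), a NOTCH target and repressor of vein fate, had 91 and 18 UMIs, 50.0 and 11.1 CPM, a ratio of -2.17 (-2.99 to -1.43). The ligand Dll4 was at 199 and 161 CPM (-0.30, -0.54 to -0.07), the target Hey1 at 273 and 230 CPM (-0.24, -0.44 to -0.05) and the receptor Notch1 at 325 and 295 CPM, with an interval of -0.31 to 0.04 that took in no change. Lfng, a glycosyltransferase that tunes NOTCH receptors, was at 53.8 and 27.2 CPM (-0.99, -1.53 to -0.46). Hence a ligand and a target were clearly lower, and the receptor was not.

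Jag1 and Hey2 were lower in the Cytl1-rich members too, where most of their UMIs lay. Jag1 was at 106 and 30.4 CPM there, a log2 ratio of -1.80 (-2.66 to -1.03), and Hey2 at 91.5 and 34.2 CPM, a ratio of -1.42 (-2.24 to -0.67). Split by Mgp, the rich cells gave -1.54 (-2.34 to -0.82) for Jag1 and -1.5 (-2.31 to -0.75) for Hey2. Both genes were thus lower within the rich cells as well as in the whole sum. Efnb2 was at 1189 and 838 CPM over all members (-0.50, -0.60 to -0.41) and lower in Cytl1-rich (-0.55) and Cytl1-poor members (-0.65) alike.

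Other genes of arterial identity had different ratios once the members were split. Mecom (chr3:29951296-30548008) was at 1422 and 915 CPM over all members, a log2 ratio of -0.64 (-0.73 to -0.54). In Cytl1-rich members it was at 1933 and 2001 CPM, 0.05 (-0.06 to 0.16), and in the others at 849 and 392 CPM, -1.11 (-1.29 to -0.94). Bmx, an arterial tyrosine kinase, was at 409 and 292 CPM over all members, within counting error in the rich cells (0.07, -0.15 to 0.29) and lower in the poor cells (-0.78, -1.05 to -0.51). Mgp itself (chr6:136872435-136875823) was at 3230 and 2142 CPM in all arterial cells but at 5843 and 5887 CPM in the Cytl1-rich ones. In Cytl1-poor members it was at 303 and 342 CPM (0.18, -0.06 to 0.41). Eln was at 965 and 694 CPM over all members and at 1751 and 1736 CPM in Mgp-rich cells, although at 1544 and 1366 CPM, -0.18 (-0.31 to -0.05), in Cytl1-rich ones. In Cytl1-poor members Eln was higher, at 316 and 370 CPM (0.23, 0.005 to 0.46). The median of the artery list was -0.19 in Cytl1-rich and -0.55 in Cytl1-poor members, with 20 and 31 of its 48 genes lower beyond counting error. The split itself uses genes of this program, so a lower level and fewer rich cells cannot be told apart for Mgp and Eln.

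**Figure D3:**
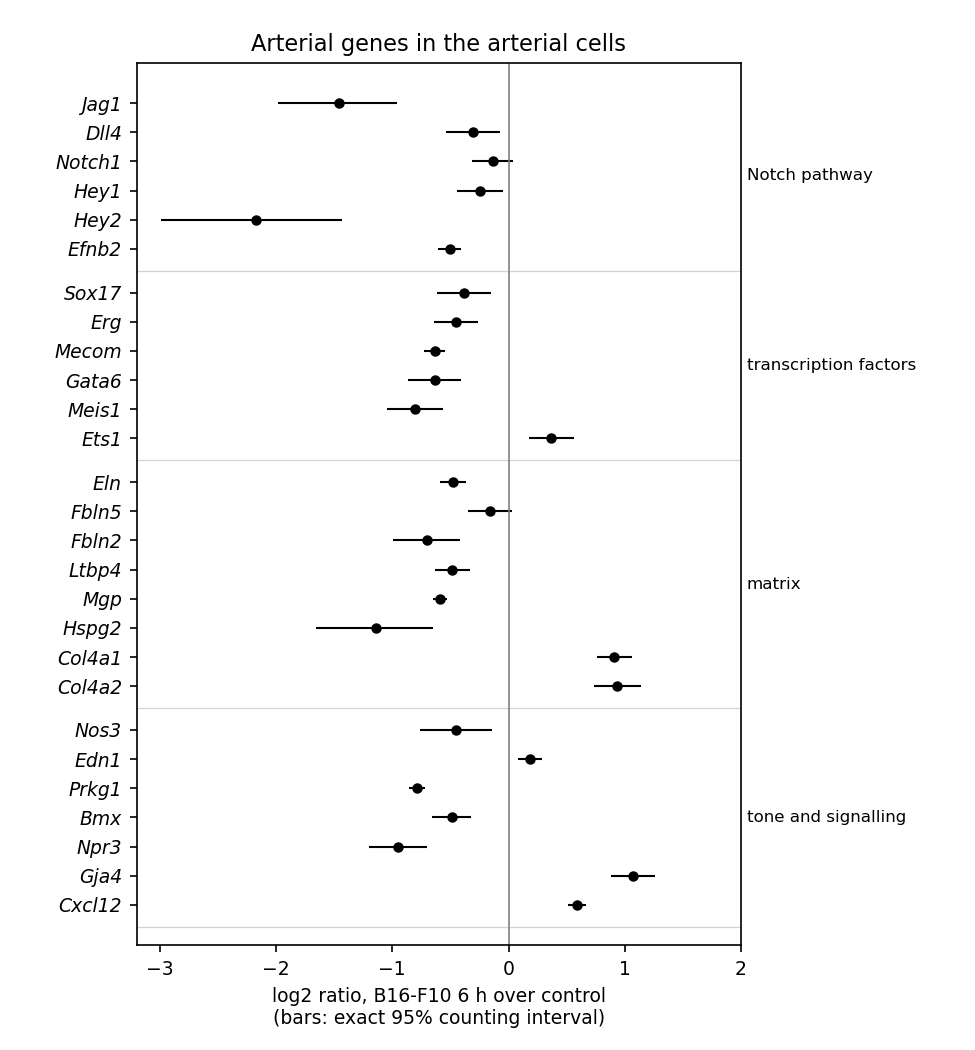
Log2 ratio of B16-F10 at 6 h over control in the sum of all arterial cells for 27 genes in 4 groups, with 95% counting intervals as bars and a line at 0. Jag1 and Hey2 stand lowest among the NOTCH genes, and Cxcl12 and Gja4 stand to the right of 0.

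A list of transcription factors of arterial and general endothelial identity was lower on balance too. Of 23 listed, 22 were counted, 13 were lower and 2 higher beyond counting error, against 14.5% and 16.2% of all genes, with a median log2 ratio of -0.40. The median of this list was -0.22 in vein, -0.14 in aerocyte and -0.28 in gCap cells. Sox17 was at 209 and 161 CPM (-0.38, -0.62 to -0.15), Erg, a factor of all ECs, at 328 and 240 CPM (-0.45, -0.64 to -0.27) and Gata6 at 240 and 154 CPM (-0.63, -0.86 to -0.41). Foxc1, which had 70 and 28 UMIs, gave the larger ratio of -1.15 (-1.84 to -0.50). Nr2f2, a factor of vein fate that the list also holds, had its lowest ratio, at 89.5 and 35.2 CPM (-1.35, -1.81 to -0.90), and in control its UMIs came almost wholly from Cytl1-rich members, at 166 against 3.5 CPM. The 2 factors that stood higher were Ets1 (0.37, 0.18 to 0.56) and Foxf1 (0.33, 0.13 to 0.53), both at a lower level in control arterial cells than in other ECs. Flow-responsive Klf2 was at 1332 and 1252 CPM in the sum of all members (-0.09, -0.17 to -0.00), but higher in Cytl1-rich (0.23, 0.13 to 0.34) and Cytl1-poor members (0.18, 0.03 to 0.34) taken apart.

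A few artery genes went the other way. Cxcl12, an arterial chemokine that guides leukocytes and vessel growth, was at 1383 and 2078 CPM, a log2 ratio of 0.59 (0.51 to 0.66). It was at 918 and 1775 CPM in Cytl1-rich members (0.95, 0.82 to 1.09). In Cytl1-poor members, which held most of its UMIs, it was at 1903 and 2224 CPM (0.22, 0.13 to 0.32). Gja4, which encodes the gap junction protein connexin 37, was at 198 and 415 CPM (1.07, 0.88 to 1.26), and higher in Cytl1-rich (0.82) and Cytl1-poor cells (1.43). Plac8 was at 412 and 957 CPM (1.22, 1.09 to 1.35). Vcam1, the ligand of leukocyte integrins, was at 437 and 775 CPM (0.83, 0.70 to 0.96), with 19.9% and 22.8% of its UMIs in 1 cell of each library. Vwf, von Willebrand factor, was at 1571 and 1777 CPM (0.18, 0.10 to 0.25).

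Of 39 genes of elastic fibres and arterial matrix, 27 were counted, 12 were lower and 7 higher beyond counting error, against 14.5% and 16.2% of all genes. In the sum of all members the fibulin gene Fbln5 was at 281 and 252 CPM (-0.16, -0.35 to 0.03), Fbln2 at 155 and 95.1 CPM (-0.70) and Ltbp4, which binds fibrillin, at 534 and 382 CPM (-0.48, -0.63 to -0.34). Within the splits these values differed. Fbln5 was higher in Cytl1-rich members (0.31, 0.09 to 0.52) and within counting error in Cytl1-poor ones (0.26, -0.18 to 0.71). Fbln2 was within counting error in both (-0.23 and 0.01), and Ltbp4 was at -0.25 (-0.45 to -0.06) and -0.16 (-0.41 to 0.09). The collagen gene Col5a2 was at 485 and 280 CPM (-0.79, -0.96 to -0.63). In contrast, the basement membrane collagen genes Col4a1, at 314 and 590 CPM (0.91, 0.76 to 1.06), and Col4a2, at 174 and 333 CPM (0.93, 0.73 to 1.14), were higher, as was the matrix cross-linking enzyme gene Tgm2 at 172 and 440 CPM (1.36, 1.16 to 1.55). In Cytl1-rich members Col4a1 was within counting error (0.14, -0.18 to 0.46), and in the others its log2 ratio was 0.89 (0.70 to 1.07).

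Of 33 genes of vascular tone, 23 were counted, 11 were lower and 3 higher beyond counting error, against 14.5% and 16.2% of all genes. Prkg1, the cGMP-dependent kinase that acts below nitric oxide, was at 2712 and 1570 CPM (-0.79, -0.86 to -0.72). Npr3, the clearance receptor of natriuretic peptides, was at 235 and 122 CPM (-0.95, -1.20 to -0.70), Ptgs1, which encodes cyclooxygenase 1, at 85.7 and 44.5 CPM (-0.95, -1.37 to -0.53) and Nos3, endothelial nitric oxide synthase, at 123 and 89.6 CPM (-0.45, -0.76 to -0.14). Within Cytl1-rich members Nos3 was at 191 and 181 CPM, and within Cytl1-poor members at 45.4 and 45.7 CPM. The log2 ratio of Ptgs1 was 0.36 in Mgp-poor members. It was 0.07 in members without a UMI of smooth muscle, pericyte, fibroblast, platelet, myeloid or melanoma markers. Edn1, which encodes the vasoconstrictor endothelin 1, was instead slightly higher in the sum of all members, at 785 and 891 CPM (0.18, 0.08 to 0.29). Its log2 ratio was -0.07 in members without a UMI of smooth muscle, pericyte, fibroblast, platelet, myeloid or melanoma markers. In BMP and TGF-beta signaling, Id2, a BMP target, was at 241 and 106 CPM (-1.19, -1.45 to -0.93) and Acvr1, a type I receptor, at 119 and 59.9 CPM (-0.99, -1.35 to -0.64), while Bmpr2, the receptor gene mutated in heritable pulmonary arterial hypertension, was at 2290 and 2259 CPM (-0.02, -0.08 to 0.04). Of that list 10 of 25 counted genes were lower and 7 higher, against the same background.

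Early stress genes were already present in control arterial cells of the Mgp-rich kind. Junb, an AP-1 subunit, was at 743 CPM in Mgp-rich and 93.4 CPM in Mgp-poor control members, and at 755 and 573 CPM in the same kinds after B16-F10. Its log2 ratio was therefore 0.02 (-0.16 to 0.21) in the rich and 2.62 (2.29 to 2.96) in the poor cells, and 0.61 (0.47 to 0.74) over all. Of 17 counted immediate early genes, 10 were higher and 2 lower beyond counting error, against 16.2% and 14.5% of all genes, and the median of the list was 0.02 in Mgp-rich and 1.95 in Mgp-poor members. Ier3 was at 183 and 503 CPM (1.46, 1.27 to 1.65), while Btg2 and Dusp1 were lower over all members, at -0.36 and -0.60. In Mgp-poor members the log2 ratio was 0.50 for Btg2 and 0.15 for Dusp1. Of 16 counted heat shock chaperones, 7 were higher and 1 lower, led by Bag3, a co-chaperone, at 0.92 (0.47 to 1.38) and Hsp90aa1 at 0.83 (0.60 to 1.07).

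The counts of adhesion, coagulation and heat shock genes likewise stand against 16.2% of all genes higher and 14.5% lower. Of 26 adhesion and chemokine genes, 12 were counted, 7 were higher and 2 lower. Sele, which encodes E-selectin, gave 12 UMIs in control arterial cells and 63 after B16-F10 (log2 2.56, 1.66 to 3.59), 50.0% and 36.5% of them in 1 cell. Icam1 was at 153 and 211 CPM (0.46, 0.23 to 0.70), and Il15, a cytokine gene, was lower at 45.1 and 18.5 CPM (-1.28, -1.94 to -0.66). Csf1, the macrophage growth factor gene, was at 112 and 132 CPM with an interval of -0.04 to 0.53, and in Cytl1-rich members its log2 ratio was 0.64 (0.20 to 1.07). Of 12 counted coagulation genes, 6 were higher and 0 lower. Plaur, the urokinase receptor gene, was at 52.7 and 111 CPM (1.08, 0.71 to 1.45), and thrombomodulin (Thbd) at 390 and 414 CPM, within counting error. Ch25h, which encodes the enzyme of 25-hydroxycholesterol synthesis, had 17 and 125 UMIs (3.05, 2.31 to 3.87) and was higher in both Cytl1 sets.

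Some ratios rested on single cells. Cxcl14, a chemokine gene, gave 0 UMIs in control arterial cells and 91 after B16-F10, at least 34.1-fold higher against a floor of 3 counts in the control sum, but 97.8% of them lay in 1 cell. Thbs1 was at 7.69 and 50.6 CPM with 76.8% of its B16-F10 UMIs in 1 cell, and its log2 ratio went from 2.72 to 1.25 without the top cells. Gsn went from 2.06 to -0.42. Igfbp5, an IGF-binding protein gene, had 269 and 14 UMIs (-4.10), with 46.5% of the control UMIs in 1 cell. Of the 167 higher and 155 lower genes, 17 and 13 had more than 25% of their UMIs in 1 cell, and 161 and 149 still met the call without the top cell of each library.

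Several genes of arterial cells differed from the same genes in other vessel classes, which were called from their own markers (349 and 365 vein, 5521 and 5197 gCap and 1555 and 1068 aerocyte cells in control and B16-F10 lungs). Edn1 was higher in arterial cells (0.18) but at -0.64 in vein, -0.95 in gCap and -1.28 in aerocyte cells, and the difference of the log2 ratios from gCap cells was 1.13 (1.02 to 1.25). Cxcl12 was higher by 0.59, against 0.00 in vein, -0.08 in gCap and -0.00 in aerocyte cells, with a difference from gCap of 0.67 (0.59 to 0.75). Adamts9 gave 2.68 in arterial cells and 1.64 in gCap cells, a difference of 1.04 (0.74 to 1.35). These arterial values are of the whole sum, whose share of Cytl1-rich members differed between the libraries. Adamts9 gave 0.40 (-0.44 to 1.21) in Cytl1-rich and 2.61 (2.26 to 2.97) in Cytl1-poor members, and Cxcl12 gave 0.95 and 0.22. Edn1 gave -0.07 in the arterial cells without a UMI of smooth muscle, pericyte, fibroblast, platelet, myeloid or melanoma markers.

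Other genes had smaller log2 ratios in the arterial sum than in gCap cells. Ackr3, the scavenging receptor of CXCL12, was at 162 and 132 CPM (-0.30, -0.56 to -0.04) in arterial cells and higher in vein (0.64), gCap (1.58) and aerocyte cells (1.59). It was the 1 rCap marker lower in the sum of all arterial cells, but the direction turned within it. In Cytl1-rich members Ackr3 had 279 and 113 UMIs (-0.43, -0.76 to -0.11) and in Cytl1-poor members 15 and 100 UMIs (2.39, 1.60 to 3.28), and in Mgp-poor members its log2 ratio was 1.73 (1.13 to 2.37). Fos, an AP-1 subunit, was at 351 and 385 CPM in arterial cells (0.14, -0.02 to 0.30) and at 57.8 and 273 CPM in gCap cells (2.24). Selp, which encodes P-selectin, was at 100 and 139 CPM (0.47, 0.18 to 0.76) in arterial cells, at 54.8 and 299.8 CPM (2.45) in vein cells and at 0.472 and 11.8 CPM (4.64) in gCap cells. In the sum of all arterial cells the log2 ratio of Socs3 differed from that in gCap cells by -1.19 (-1.42 to -0.94). That of Pim3 differed from gCap cells by -0.65 (-0.92 to -0.39) and from vein cells by 0.12 (-0.17 to 0.41). These differences do not hold for each set of members. Socs3 gave 0.12 in Cytl1-rich and 2.93 in Cytl1-poor members, and Pim3 gave 0.33 and 3.06. The rCap list as a whole had a median of 1.06 in arterial cells, 1.24 in vein, 1.27 in aerocyte and 1.54 in gCap cells. The artery list had medians of -0.54 in arterial, 0.02 in vein, -0.41 in aerocyte and -0.34 in gCap cells, over the genes counted in each class. These differences between classes were not tested.

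**Figure D4:**
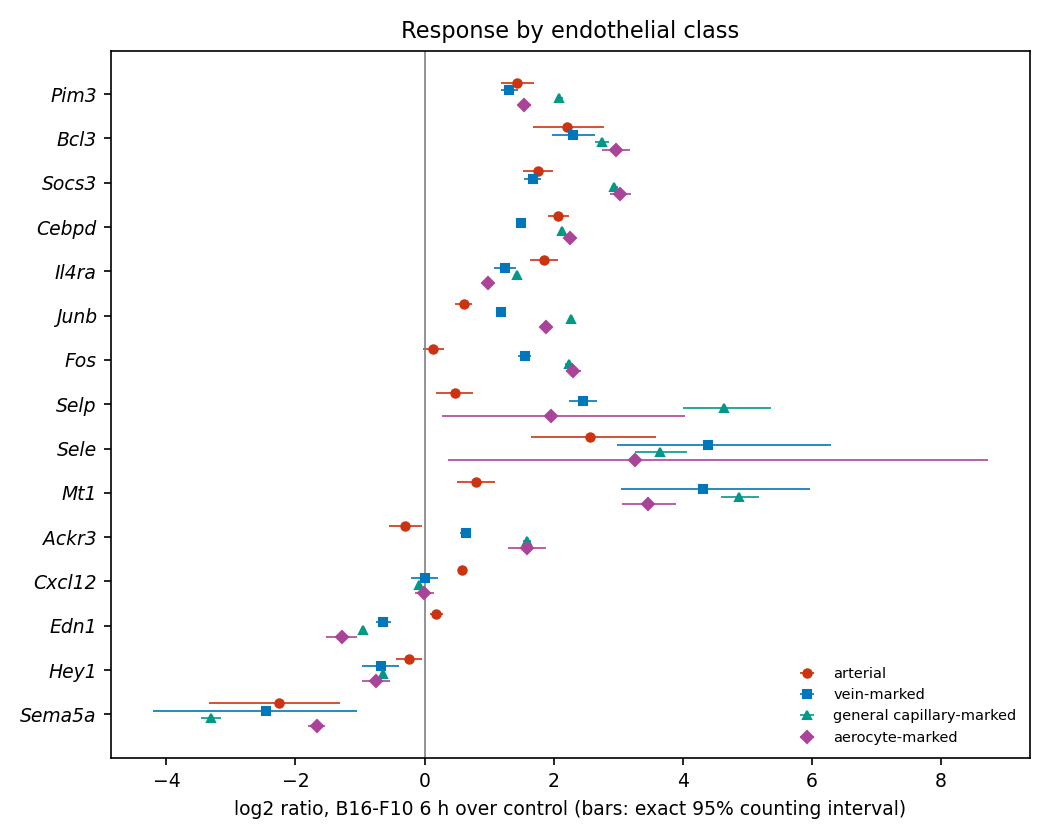
Log2 ratio of B16-F10 at 6 h over control for 15 genes in arterial, vein-marked, gCap-marked and aerocyte-marked cells, with 95% counting intervals as bars. Edn1 and Cxcl12 stand above the other classes in arterial cells, and Fos, Junb, Mt1, Ackr3 and Selp stand below the gCap cells.

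Markers of other cell types were also present in the arterial sums, and not equally in the 2 libraries. Smooth muscle markers summed to 41.8 CPM in control and 86.5 CPM in B16-F10 arterial cells, with 6 and 5 of 7 listed genes seen. Pericyte markers summed to 12.1 and 19.8 CPM, fibroblast markers to 73.6 and 95.1 CPM and epithelial markers to 254 and 252 CPM. Platelet markers gave 11.5 and 47.6 CPM, with 3 and 5 of 6 genes seen, and myeloid markers 13.7 and 26.6 CPM. Lymphoid markers gave 0.549 and 0.618 CPM, lymphatic markers 41.8 and 35.2 CPM, and red cell markers 1450 and 911 CPM. Melanoma markers gave 20.3 and 74.1 CPM, with 2 and 7 of 8 genes seen. Free RNA, gauged from 7 red cell, epithelial and myeloid genes, made up at most 2.26% and 2.04% of the UMIs. A subset of 100 and 52 arterial cells had no UMI of the smooth muscle, pericyte, fibroblast, platelet, myeloid or melanoma markers. Epithelial, lymphoid, lymphatic and red cell markers were not used to choose it. In this subset the median log2 ratio was 1.04 for rCap markers and -0.57 for artery markers. Its cells were chosen for the absence of marker UMIs, which depends on depth.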

How the data were processed

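The authors deposited raw counts of UMIs per gene and barcode for all barcodes of 2 droplet libraries, with no normalization or filter. The file headers and the submitters' processing notes name Cell Ranger 7.2.0, and the notes add Seurat 4.4.0 and mm10. The methods of the study give an earlier Cell Ranger version, and intron counting is not given in the sources used here. Columns of the files without a sample numbered 0.

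Arterial cells were found by the rule in the report, whose limits on genes and mitochondrial UMIs are those of the study. The members and lists were chosen with earlier results of these data known. Counts were summed per library over arterial cells and over vein-, aerocyte- and gCap-marked cells. The log2 ratio of B16-F10 over control was scaled by the sums' total UMIs, with an exact conditional binomial 95% interval, shares had exact Clopper-Pearson intervals, and differences of shares or of log2 ratios combined the single intervals by squaring and adding. Genes were counted from 50 UMIs in both sums together, without the rule's own genes. With 1 library per group no test was made. Doublets were not removed. Scrublet in scanpy 1.11.5 served as an alternative.

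Named genes were the 15 highest and 15 lowest log2 ratios beyond counting error, up to 4 genes of each list with the largest ratios beyond counting error and up to 2 with the most UMIs, 15 genes picked by name, the 15 genes highest over other ECs in control, and the rule's genes. Edn1, Selp, Fos, Egr1 and the other genes outside these classes were named after their values were seen. Coordinates are those of GENCODE M21 (GRCm38, the build of mm10), counted from 1. No protein sequences were used here. Alternatives were another marker threshold, gene limit, Malat1 limit, UMI minimum, scaling, thinning, free RNA subtraction, a mean over cells and cell subsets. Python 3.11.15, numpy 2.4.6, scipy 1.17.1, pandas 2.3.3 and matplotlib 3.10.9 were used.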

Additional observations from a re-analysis of the deposited data

Results flagged for a closer look

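The genes here had a log2 ratio in arterial cells and one of the opposite sign in another vessel class, each beyond counting error. The differences between classes were not tested, since each class has 1 library per group. Sgcz was higher in arterial cells (2.37), with 69.1% of its B16-F10 UMIs in 1 cell, and lower in vein-marked (-4.10) and gCap-marked cells (-1.22). Kcnt2, a potassium channel gene, was lower in arterial cells (-2.47, 56 and 9 UMIs) and higher in gCap-marked cells (2.36). Krt18, a keratin gene, was lower in arterial cells (-1.87), with 65.9% of its control UMIs in 1 cell, and higher in gCap-marked cells (1.23). Mgp was lower in the sum of all arterial cells (-0.59) and higher in gCap-marked cells (1.04). Within the Cytl1 sets the arterial ratio was 0.01 (-0.05 to 0.07) in rich and 0.18 (-0.06 to 0.41) in poor members. Tagln, a smooth muscle gene, was higher in arterial cells (1.28), with 50.7% of its B16-F10 UMIs in 1 cell and a ratio of 0.46 without the top cells, and lower in vein-marked cells (-1.55). S100a4 was lower in arterial cells (-1.81), with 86.4% of its control UMIs in 1 cell and a ratio of -0.02 without the top cells, and higher in gCap-marked (1.47) and aerocyte-marked cells (3.48). The red cell genes Hba-a2 (-1.10), Hba-a1 (-0.78) and Hbb-bs (-0.64) were lower in arterial cells. In vein-marked cells they were higher, by 2.76, 2.51 and 2.39. Of the control Hba-a2 UMIs, 57.7% lay in 1 arterial cell. Without the top cells the arterial ratios were 0.10 for Hba-a2, 0.58 for Hba-a1 and 0.72 for Hbb-bs, so the opposite sign was lost.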

How the results depend on the processing

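No paired analysis was possible because there was 1 library per group, and no replicate could be left out. Of 3636 log2 ratios of 211 named genes under 19 alternatives, 140 values of 59 genes changed sign, 81 of them in the Cytl1 and Mgp splits. Among genes called at least 2-fold different, 11 values did. The log2 ratio of Gsn in arterial cells became -0.996 with at least 6 marker UMIs, -0.98 without an upper limit of genes, -1.07 with at least 10 marker UMIs, -0.40 in Cytl1-rich members and -0.42 without the top cells. Sftpc became -0.0013 without an upper limit of genes. Hba-a2 became 0.15 without Scrublet calls and 0.30 without cells holding smooth muscle, pericyte, fibroblast, platelet, myeloid or melanoma markers. It became 0.12 with at least 10 marker UMIs, 0.11 in Cytl1-poor members and 0.10 without the top cells. Against 167 higher and 155 lower genes, Cytl1-rich members gave 59 and 92, Mgp-rich members 80 and 91, members thinned to 2000 UMIs 80 and 58, a minimum of 20 UMIs 290 and 286, a minimum of 100 UMIs 81 and 68 and no minimum 348 and 344. Thinning and the minimum change how many UMIs or genes enter, and the subsets hold fewer cells. The rCap median of 1.06 became 0.30 and 1.46 in Cytl1-rich and Cytl1-poor members and 0.44 and 1.48 in Mgp-rich and Mgp-poor members, and lay between 0.92 and 1.20 under the others. The artery median of -0.54 became -0.45 with at least 10 marker UMIs, -0.19 in Cytl1-rich and -0.18 in Mgp-rich members. The alternatives with at least 10 marker UMIs, the Cytl1 and Mgp splits and the removal of top cells were chosen after seeing the data. With ratios centred on the median gene, 162 and 162 genes were called. The difference in the share of arterial cells ranged over the alternatives from -0.435 to 0.0958 percentage points. Depth limits genes with few UMIs in 1 library, such as Inhbb, Hey2 and Sele.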

Other observations

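Of 18 counted junction genes of arterial cells, 1 was higher and 7 were lower beyond counting error, against 16.2% and 14.5% of all genes, with a median log2 ratio of -0.12. Esam, an adhesion molecule of endothelial tight junctions, was at 402 and 628 CPM (0.64, 0.51 to 0.78), against 0.35 in gCap-marked cells. Cldn5, the main endothelial claudin, was at 1772 and 1606 CPM (-0.14, -0.22 to -0.07). S1pr1, the receptor of the barrier lipid sphingosine 1-phosphate, was at 571 and 905 CPM (0.66, 0.55 to 0.78), and Calcrl, the receptor that binds adrenomedullin, at 5481 and 4494 CPM (-0.29, -0.33 to -0.24). Fabp4, a fatty acid binding protein gene, was at 257 and 66.7 CPM (-1.94, -2.26 to -1.64) and at -3.16 in gCap-marked cells. Sema5a, a guidance gene, had 59 and 11 UMIs (-2.25, -3.33 to -1.31).

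Metallothionein genes, which bind zinc and copper, came largely from single arterial cells. Mt1 was at 89.0 and 154 CPM, with 39.5% and 40.4% of the UMIs in 1 cell of each library, against 3.31 CPM in other control ECs and log2 ratios of 4.88 in gCap-marked and 0.79 in arterial cells. Mt2 gave 38.5 and 51.3 CPM, with 57.1% and 56.6% in 1 cell.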
